A study of Drosophila melanogaster with 4 samples.

Results

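The genes described are 6 antioxidant enzymes of Drosophila melanogaster: the peroxiredoxins Prx3 (CG5826) and Prx5 (CG7217), the superoxide dismutases Sod1 (CG11793) and Sod2 (CG8905), the catalase Cat (CG6871) and the thioredoxin reductase Trxr1 (CG2151). They were found by the annotation ID of their array probes. Of the 6, 5 had probes, 10 in all, and 5 of the 9738 genes tested are therefore covered. The set was chosen by the ratio of null over w1118 on these same arrays, Prx3 for its low one, so the ratios of these genes are given as a description without a test.

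Embryos null for the 8-miR cluster, a set of neighbouring microRNA genes, were compared with wild-type w1118 embryos, a white-eyed laboratory strain, and the labels give the w1118 background for both genotypes. Flies laid eggs for 2 h at 25 degrees C and embryos were aged for 6 h more, so whole embryos of both genotypes were 6 to 8 h old. Each of 3 independently isolated replicates set 1 null extract against 1 w1118 extract on a 2-colour array, and replicate 1 was hybridised again with the dyes exchanged. The labels conflict on the mutant: titles and source names give the 8-miR cluster, the genotype field a miR-8 cluster, and the treatment text an ectopically expressed mir-3.

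Superoxide leaking from the respiratory chain is turned into hydrogen peroxide by superoxide dismutases, Sod2 in the mitochondrial matrix and Sod1 in the cytosol. Catalase breaks hydrogen peroxide down in peroxisomes. Peroxiredoxins reduce it with electrons passed on by thioredoxin, Prx3 inside mitochondria, and in flies, which lack a glutathione reductase, thioredoxin reductase supplies both the thioredoxin and the glutathione systems.

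Of all gene spots, 58.01% to 65.79% per array were well above background in the null and 56.71% to 65.47% in w1118. Ratios of the 3 unswapped arrays correlated at 0.941 to 0.958 across probes. The dye-swap array correlated at 0.883 with the unswapped array of the same replicate 1, and at 0.824 and 0.848 with replicates 2 and 3. These values are a description across probes, which are not independent. All 7 embryo markers (among them twi, en and elav) were above background on all 4 arrays in both genotypes, and none of 4 larval fat body genes was kept for testing. Of 3 hemocyte markers kept, 1 was higher and 2 were lower in the null. Of 13 egg formation genes 10 were kept, 6 of them lower and 1 higher, and their summed signal was 1142 to 1359 in the null and 2057 to 2605 in w1118.

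Prx3, the mitochondrial peroxiredoxin, had far less signal in null embryos. Its brighter probe, A_09_P105315, read 100.5 units above local background in the null against 2637.5 in w1118 on the replicate 1 array, and 129.5 against 1434 on the dye-swap array. In replicate 2 it read 82 in the null against 2394.5 in w1118, and in replicate 3 it read 90 against 2356. Every null reading lay far below every w1118 reading, in both dye orientations. The other probe, A_09_P076191, has 2 spots, and over all 3 Prx3 spots the null readings ran from 66 to 160.5 and the w1118 readings from 942 to 3206. All of these readings were well above background, so the null signal was measured and is not a bound.

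**Figure D1:**
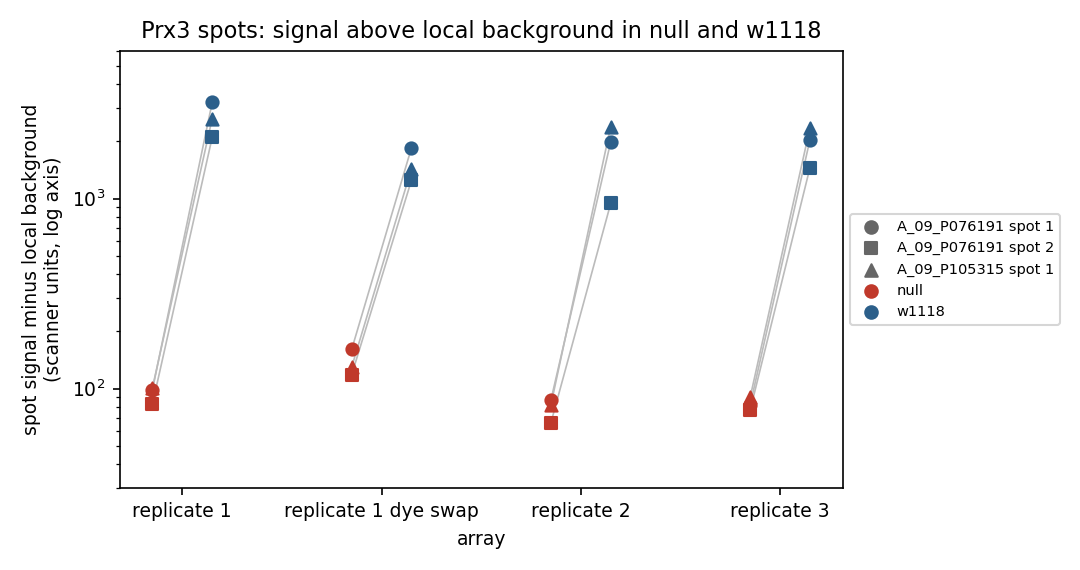
Median spot signal minus local background of the 3 Prx3 spots on each of 4 arrays, on a log axis, with null points left of w1118 points and a line joining the same spot. The null readings sit between 66 and 160.5, all below the w1118 readings of 942 to 3206.

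Signs follow the dyes given in the labels, which no probe checked. The authors' matrix, whose direction the sources used here do not state, has the opposite sign on every array, and the sample titles of replicates 1 to 3 name the null before w1118. If the signs were turned, every direction given here would turn with them.

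After background correction and loess normalization, the log2 ratio of null over w1118 for probe A_09_P105315 was -3.46 on the replicate 1 array, -3.61 on the dye-swap array, -3.97 in replicate 2 and -3.83 in replicate 3. Its mean was -3.78 ± 0.22 (SD, n = 3, the 2 replicate 1 arrays averaged), a signal 13.7-fold higher in w1118. Probe A_09_P076191 gave -3.54, -3.64, -3.26 and -3.50 on the same arrays, with a mean of -3.45 ± 0.17, or 10.9-fold. Both probes, named for transcript CG5826-RA, thus lay within 0.33 log2 units of each other, while the 2 spots of A_09_P076191 differed by 0.27 to 0.79 on single arrays. The arrays of slide 1, both of replicate 1, gave -3.54 for the brighter probe, and those of slide 2, replicates 2 and 3, gave -3.90. In log2 signal, that probe ran from 7.17 to 7.59 in the null and from 10.86 to 11.14 in w1118.

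Prx3 had the 9th lowest fitted ratio of the 9738 genes tested, or the 9th highest with the signs turned. Of the 8 genes below it, 2 were above background on 0 of 4 null arrays, so the rank is not exact. By fitted ratio 12 genes (0.123%) were at least 10-fold lower in the null, and the median ratio of all genes was 0.01. Next above it in rank was the Wnt pathway gene Apc (-3.52 ± 0.06). Of the 10 egg formation markers tested 6 were called lower, the direction of the Prx3 ratio, beside 26.6% of all genes. Vm26Aa at -2.05 and Cp15 at -1.10 were among them, Cp18 at 0.20 ran against Prx3, and 3 did not pass. The part of these markers in the Prx3 ratio was not tested. In whole-embryo RNA, fewer cells that express a gene and less RNA per cell cannot be told apart.

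Over the 3 replicates, the genes with the smallest Euclidean distance to Prx3 in log2 ratio were Apc (distance 0.52), the ion channel gene Trpm, the gag-like capsid gene Arc1 (0.83), the UDP-glycosyltransferase gene Ugt50B3 (0.99) and the lysozyme gene LysE (1.00). Apc, like Prx3, lies on arm 3R, and Trpm, Arc1 and Ugt50B3 lie on 2R. LysE has close copies, so its value is uncertain. The Trpm probe was above background on 0 of 4 null arrays, so by this probe null signal was lower by a factor of at least 16.2 and its distance is not exact. The other 4 kept probes of Trpm gave -0.07 to 0.25. With 3 replicates the distance follows mainly the size of the ratio.

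The genes around Prx3 on arm 3R did not share its ratio by their brightest probes, which ran from -0.63 to 0.44. In order along the arm, P5cr-2, for an enzyme of proline synthesis, gave 0.44 ± 0.01, CG5824 gave 0.27 ± 0.08 and the splicing factor gene SF1 gave -0.63 ± 0.07 before Prx3. After it came the homeobox gene Hmx at -0.41 ± 0.14, the nucleotide-sugar transporter gene sll at 0.29 ± 0.06 and CG14327 at 0.09 ± 0.06. The first 5 passed the test (limma, adjusted p of 0.000102 for SF1 to 0.00507 for CG5824), and CG14327 did not (adjusted p = 0.141). Of all genes, 54.7% passed. By the RefSeq positions, 0 genes overlapped Prx3 in position.

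A 2nd probe of CG5824, A_09_P012841, was above background on 0 of 4 null arrays and on 4 of 4 w1118 arrays. Its null signal was lower by a factor of at least 9.33. This bound was set against the lowest signal above background on an array or the probe's own, whichever was higher. With no dye swap in replicates 2 and 3, dye bias can enter this bound. The brighter probe A_09_P173105, named for the same transcript, was above background in both genotypes on all 4 arrays and had the opposite sign. This makes the ratio of CG5824 uncertain. The 2nd probe of Hmx gave 0.11 ± 0.06, which did not pass (limma over all kept probes, adjusted p = 0.107). The other 2 probes of sll gave 0.21 and 0.22.

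**Figure D2:**
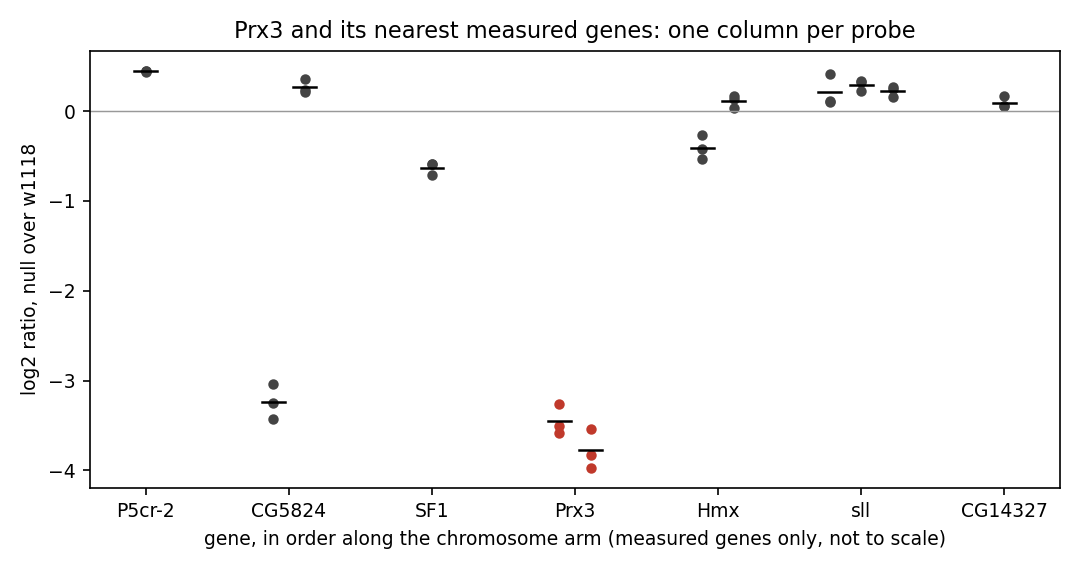
Log2 ratios of null over w1118 in 3 replicates (points) with their mean (bar), for each kept probe of Prx3 and of the 3 nearest measured genes on either side, in gene order and not to scale. Both Prx3 probes lie below -3, as does 1 of 2 probes of CG5824, which was not above background in the null, and the means of the other probes lie between -0.63 and 0.44.

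Prx5, a peroxiredoxin placed in mitochondria, cytosol and other compartments of fly cells, had 0 probes under its annotation ID and was not analysed here. The 6 nearest measured genes around it gave -0.06 to 0.19, and 1 of them passed as higher, beside 28.1% of all genes.

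Sod2, the manganese superoxide dismutase of mitochondria, had more signal in the null. Its brighter probe, A_09_P121615, gave log2 ratios of 0.66 on the replicate 1 array, 0.54 on the dye-swap array, 0.68 in replicate 2 and 0.62 in replicate 3. The null was higher on 4 of 4 arrays, with log2 signals of 13.30 to 13.65 in the null and 12.67 to 12.99 in w1118. Log2 signals, here and for the other genes, were not scaled between arrays, so their ranges also hold differences in array brightness. The mean was 0.63 ± 0.04 (SD, n = 3), or 1.55-fold. The 2nd probe, A_09_P011996, gave 0.50, 0.44 and 0.53 on the unswapped arrays but -0.03 on the dye-swap array, and averaged 0.40 ± 0.15. On that array its log2 signal was 11.84 in the null and 11.87 in w1118, so its higher null signal was seen in 1 dye orientation only. Sod2 lies on arm 2R, and of its 6 nearest measured genes 4 passed as higher, beside 28.1% of all genes, and 0 as lower. The highest was Idgf6, an imaginal disc growth factor gene, at 2.82.

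Sod1, the copper and zinc superoxide dismutase, was also higher in the null, by a smaller ratio. Probe A_09_P044826 gave 0.29 on the replicate 1 array, 0.29 on the dye-swap array, 0.35 in replicate 2 and 0.31 in replicate 3, a mean of 0.32 ± 0.03, or 1.25-fold. The ratio was positive on 4 of 4 arrays. The unscaled log2 signals over arrays overlapped, at 11.84 to 12.36 in the null and 11.49 to 12.07 in w1118. Its 2nd probe, A_09_P206585, gave 0.21, 0.38, 0.22 and 0.28 on the same arrays, a mean of 0.26 ± 0.04. Here the log2 signals of 7.86 to 8.14 in the null lay above those of 7.63 to 7.77 in w1118. Of the 6 nearest measured genes of Sod1, 2 passed as higher, 1 as lower and 3 did not pass. Among all genes 28.1% were higher and 26.6% lower.

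Cat, the peroxisomal catalase, was higher in the null on every array by both probes. Probe A_09_P041596 gave 0.32 on the replicate 1 array, 0.12 on the dye-swap array, 0.35 in replicate 2 and 0.22 in replicate 3, with a mean of 0.26 ± 0.08. Probe A_09_P137260 gave 0.47, 0.17, 0.48 and 0.30 on the same arrays, with a mean of 0.37 ± 0.10. For both probes the dye-swap array gave the smallest ratio. Log2 signals of the brighter probe ran from 12.86 to 13.24 in the null and from 12.57 to 12.96 in w1118 and overlapped. The 6 nearest measured genes of Cat likewise had 2 higher, 1 lower and 3 that did not pass, beside 28.1% higher and 26.6% lower among all genes.

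Trxr1, the X-linked thioredoxin reductase, showed no ratio beyond its spread by its brighter probe. Probe A_09_P032591 gave 0.05 on the replicate 1 array, -0.002 on the dye-swap array, -0.10 in replicate 2 and 0.07 in replicate 3. It averaged -0.003 ± 0.09, and the null was higher on 2 arrays and lower on 2. The 2nd probe, A_09_P049701, gave -0.02, 0.04, 0.22 and 0.18 on these arrays, a mean of 0.14 ± 0.11. By this probe the null was higher on 3 arrays and lower on 1. Of the 6 nearest measured genes of Trxr1, 5 passed as higher, beside 28.1% of all genes, and 1 did not pass. Among the 5 were sni at 1.25, sdt at 0.91 and CG2147 at 0.65.

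**Figure D3:**
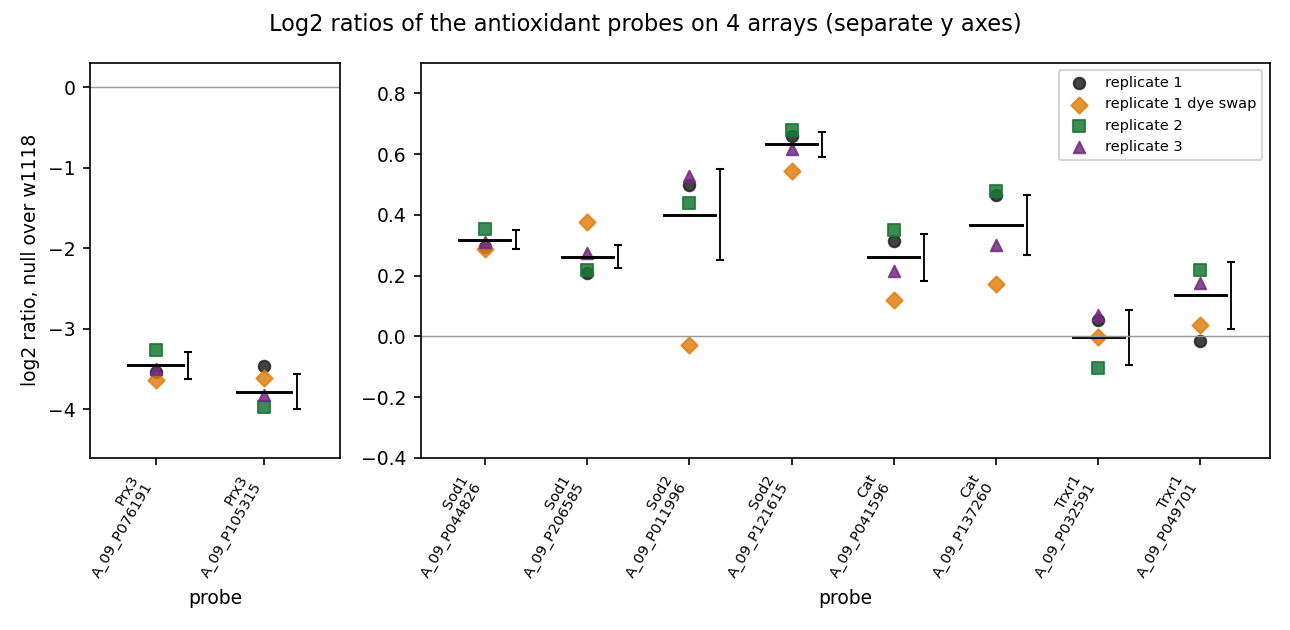
Log2 ratios of null over w1118 for the 10 probes of the 5 measured antioxidant genes on 4 arrays (symbols), with the mean of 3 replicates (bar) and its SD (whisker). Prx3 has its own y axis and lies below -3.2 on every array, while the ratios of the other genes lie between -0.10 and 0.68, with the dye-swap array lowest for Sod2 and Cat.

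Since the set was chosen with these ratios known, no calls are given for the 5 measured genes. Of the 9738 genes, limma called 54.7% with adjusted p under 0.05, 28.1% higher and 26.6% lower. The median ratio of the 5 genes was 0.26, beside 0.01 for all genes tested, and their median absolute ratio was 0.32, beside 0.17. Only 1.85% of all genes were called and at least 2-fold lower, and 1.88% were called and at least 2-fold higher. By fitted ratio alone, Prx3 was more than 2-fold lower and none of the 5 was 2-fold higher. All 14 spots of these genes were above background in both genotypes on the 4 arrays, 56 readings in all, with 0 marked as outliers and 0 saturated.

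**Figure D4:**
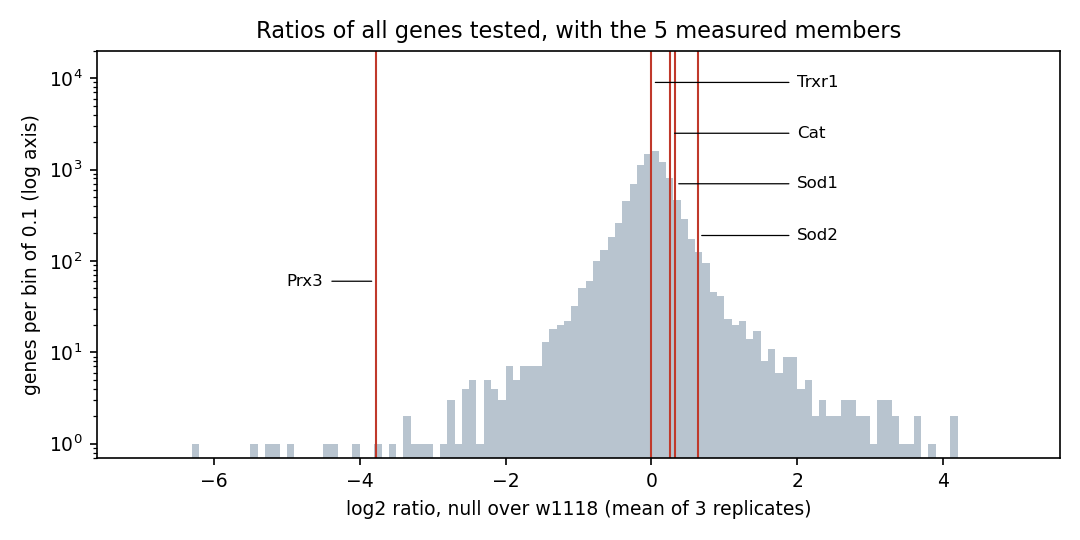
Number of genes per 0.1 log2 units of the ratio of null over w1118, on a log axis, for the 9738 genes tested, with red lines at the 5 measured antioxidant genes. Prx3 at -3.78 lies in the sparse lower tail, and the other 4 lie between -0.003 and 0.63.

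For the surrounding pathways 119 other redox and mitochondrial genes were listed, of which 101 were tested. Of these 30 were higher and 32 lower in the null and 39 did not pass, so 61.4% were called, beside 54.7% of all genes, with a median of -0.05. The counts of each list below stand beside 28.1% higher and 26.6% lower among all genes. The other peroxiredoxins moved both ways: of 5 tested, 3 rose, 1 fell and 1 did not pass. Prx2, a cytosolic peroxiredoxin, fell at -0.98 ± 0.04 (limma, adjusted p = 1.01e-05), by 1.97-fold, and its 2nd probe gave -1.02. The 1-cysteine peroxiredoxin gene Prx6a rose at 0.24 ± 0.01 (limma, adjusted p = 0.00412). Prx6c at 1.02 ± 0.06 and CG12896 at 0.75 ± 0.11 also rose, but they and Prx6b are near copies, so the signal of their probes cannot be assigned with certainty, and a 2nd Prx6c probe gave 4.40 ± 0.38.

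The list of thioredoxin system genes is not limited to those that feed Prx3. Of 7 tested, 3 rose, 1 fell and 3 did not pass, with a median of 0.15. Trxr2 had 1 probe, which was not kept. The ubiquitous thioredoxin Trx2 rose at 0.23 ± 0.05 (limma, adjusted p = 0.00594), CG8993 at 0.27 ± 0.06 with the same value by its 2nd probe, and the testis thioredoxin TrxT at 0.31 ± 0.05. The TrxT probe was above background on only 2 of 4 w1118 arrays, and a 2nd probe, above background on all 4 in both genotypes, gave 0.12, which did not pass when it stood for the gene (limma, adjusted p = 0.0647). The one that fell was dhd, the thioredoxin of the female germ line, at -0.60 ± 0.03 (limma, adjusted p = 8.03e-05). Of the 10 egg formation markers tested 6 were lower as well, beside 26.6% of all genes, 1 was higher and 3 did not pass. Their part in the dhd ratio was not tested.

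Of 4 further genes listed with the superoxide dismutases, 1 rose, 1 fell and 2, Ccs and Sodq, did not pass. Sod3, the extracellular enzyme, rose at 0.65 ± 0.03 (limma, adjusted p = 5.51e-05), and its other probes gave 0.73 and 1.80. Rsod, a gene related to superoxide dismutase, fell at -0.32 ± 0.09, with only -0.04 on the dye-swap array. Among 5 heme peroxidase and catalase-like genes 1 rose and 2 fell. Pxn, for the extracellular matrix peroxidase made by hemocytes, rose at 1.41 ± 0.06, while its other 2 probes gave 0.29 and 0.58. The immune-regulated catalase Irc fell at -0.25 ± 0.04 and the peroxidase Pxt at -0.17 ± 0.002. Pxt lost its call under 4 of 18 processing alternatives, among them without replicate 2 or without replicate 3, each with a ratio of -0.17.

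In glutathione synthesis and its peroxidases and glutaredoxins, 1 of 6 genes rose and 1 fell. The glutathione synthetase gene Gss1 rose at 0.71 ± 0.21 (2nd probe 0.39), and Gtpx, a glutathione peroxidase homolog that in flies uses thioredoxin, fell at -0.25 ± 0.08. Gtpx had only -0.08 on the dye-swap array and lost its call under 2 of 18 alternatives. Glutathione S-transferases, which couple glutathione to other molecules, had 11 of 31 higher and 12 lower, beside 28.1% and 26.6% of all genes. Their median was -0.06. GstE11 rose at 3.59 ± 0.27 (limma, adjusted p = 1.15e-06), or 12.0-fold, and GstD3 at 0.94 ± 0.05. GstZ2 fell at -1.32 ± 0.16 and GstO1 at -1.28 ± 0.03. The null signal of GstZ2 was above background on 3 of 4 arrays.

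NADPH supply and methionine sulfoxide reductase genes had 2 of 8 higher and 3 lower. The malic enzyme gene Men rose at 0.47 ± 0.04, while the isocitrate dehydrogenase gene Idh (-0.28 ± 0.05), the transaldolase gene Taldo (-0.24 ± 0.05) and SelR (-0.24 ± 0.17) fell. SelR had 0.15 on the dye-swap array and lost its call under 6 of 18 alternatives, among them without replicate 3 (-0.17). Stress response regulators had 5 of 10 lower and 2 higher, beside 26.6% and 28.1% of all genes, with a median of -0.20. That median was 0.10 on the dye-swap array, against -0.24 to -0.22 on the unswapped arrays. The PGC-1 homolog srl (-0.50 ± 0.23), the Cnc partner maf-S (-0.44 ± 0.16) and DJ-1alpha (-0.35 ± 0.04) fell, and dj-1beta rose at 0.52 ± 0.23. On the dye-swap array srl was at 0.08, maf-S at only -0.12 and dj-1beta at only 0.13.

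Metal binding genes include ones that hold iron and copper back from reactions that form radicals. Of 6 tested, 4 were lower and 1 higher, beside 26.6% and 28.1% of all genes, with a median of -0.32. MtnB, 1 of the 4 lower genes, was above background on 0 of 4 null arrays and 3 of 4 w1118 arrays. The ferritin subunit genes Fer2LCH (-0.69 ± 0.09) and Fer1HCH (-0.52 ± 0.05) and the metallothionein gene MtnA (-0.40 ± 0.01) fell, with negative ratios by every kept probe, and the transferrin gene Tsf1 rose at 0.39 ± 0.10. The list's median was near the same value on each array, from -0.37 to -0.34. Of 7 oxidant source genes 2 rose, the dual oxidase gene Duox (0.14 ± 0.06) and AOX1 (0.20 ± 0.12), and 0 fell. Duox lost its call under 10 of 18 alternatives, among them without any 1 of the replicates (0.11 to 0.17). AOX1 lost it under 5, among them without replicate 2 (0.14) or replicate 3 (0.20). Mitochondrial chaperone, dynamics and DNA maintenance genes had 3 of 12 higher and 2 lower, with a median of 0.01. TFAM, which packages mitochondrial DNA, fell at -0.42 ± 0.02 and CG11267 rose at 0.45 ± 0.06. The outer membrane channel gene porin (0.24 ± 0.17) and the fission gene Drp1 (0.35 ± 0.30) rose as well. The porin ratio was -0.007 after median centring, and its call was lost under 4 more alternatives, among them without replicate 1 (0.14) or replicate 3 (0.25). Drp1 had only 0.05 on the dye-swap array and lost its call under 7 of 18 alternatives, among them without replicate 2 (0.18) or replicate 3 (0.39).

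**Figure D5:**
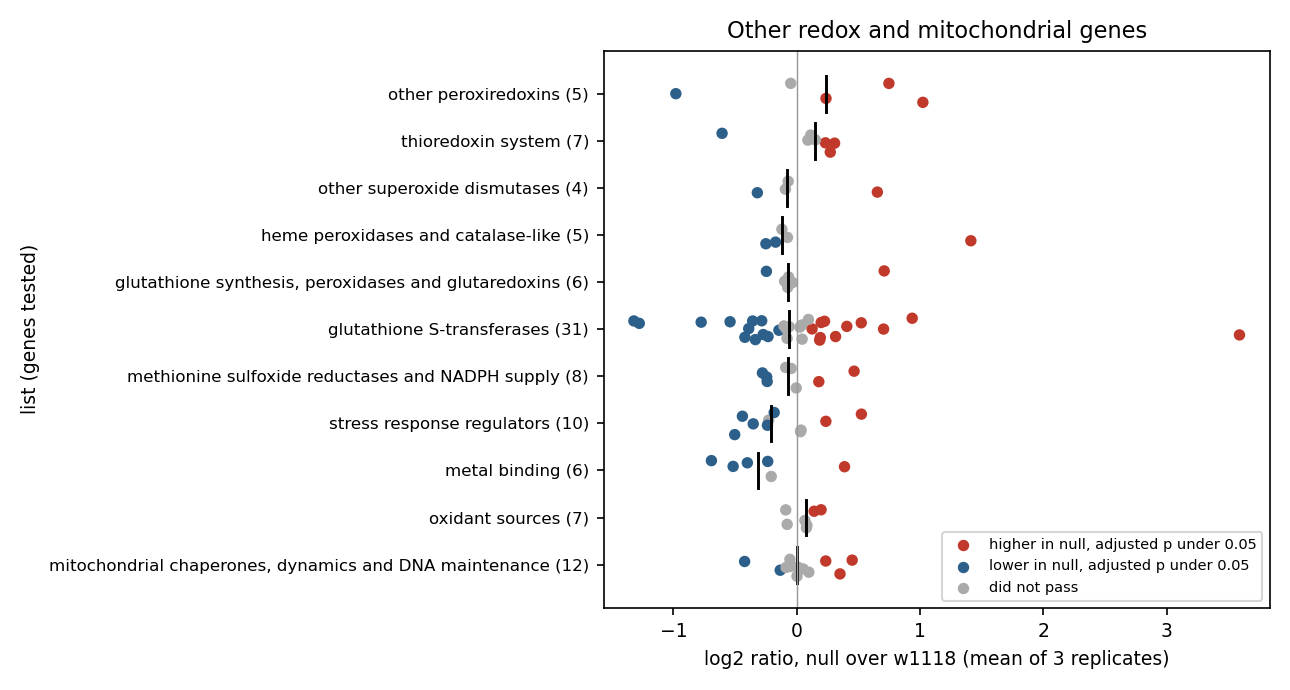
Log2 ratio of null over w1118 (mean of 3 replicates) of each tested gene in 11 lists of redox and mitochondrial genes, coloured by limma call, with the list median as a black bar. Calls fall on both sides of 0 in 10 lists, and in oxidant sources 2 were higher and 0 lower.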

How the data were processed

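Per the file headers, spots were extracted with Agilent Feature Extraction 10.1.1.1, and the deposited intensity columns are median spot and local background brightness, not normalized. Deposited processed intensities and log10 ratios, and the authors' series matrix of log2 values, served as alternatives or checks; by the labelled dyes the matrix ran w1118 over null. With limma 3.58.1 in R 4.3.3, background was corrected (normexp, offset 50) and ratios were loess-normalized, with control and outlier spots at weight 0. Ratios were turned to null over w1118 by the labelled dyes, which no probe checked here. Probes well above background in one genotype in at least 2 of 3 replicates were kept, and the brightest kept probe stood for a gene. The 2 arrays of replicate 1 were averaged, which gave n = 3, and lmFit and eBayes with Benjamini-Hochberg adjustment (0.05) were run over all genes. The number of arrays limits precision.

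Names and gene order came from a RefSeq table of Release 6, a later build than that of the array: 19482 of 32162 probes were named. Members and lists were chosen with earlier results of these data known. Genes named were the members with every kept probe, up to 4 called genes of largest ratio per list, 3 neighbours on each side of Prx3 and the 5 genes nearest to it in ratio; neighbours of the other members and the egg markers were chosen after their values were seen. Each array pairs both genotypes, so the pairing is built into the ratio. Normalization, the choice of the brightest probe and the fit were also run on simulated data of known changes. The simulation used the probes kept in the real data, gave all probes the same spread and did not cover the other steps. It held no dye effect of single probes, so recovery of small changes in the real data may be lower. Of 50 genes changed 1.2-fold, 72% were called with the right sign, and 100% at 1.5-fold, 2-fold and 4-fold. Median fitted ratios were 0.888 to 0.946 of the true ones. Alternatives covered background, normalization, filter, probe summary, dye swap, test, slide, pairing and each replicate left out.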

Additional observations from a re-analysis of the deposited data

Results flagged for a closer look

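In 3 of 21 quantities set side by side on the 4 arrays, 1 array stood apart from the others. It was the dye-swap array each time, and by chance about 1 in 20 would do so. Probe A_09_P011996 of Sod2 gave -0.02893 there, against 0.44 to 0.53 on the other arrays. The median of the stress response regulators was 0.1035 there, against -0.24 to -0.22 elsewhere. The median of the mitochondrial chaperone, dynamics and DNA maintenance genes was 0.1036 there, against -0.02 on each of the other arrays. The part of the dyes in these differences was not tested.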

How the results depend on the processing

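Prx3 stayed lower in the null under all 19 alternatives, from -4.37 to -3.54. It was -4.34 with normexp offset 0, -4.01 without background subtraction, -4.37 with processed signals or the authors' matrix, and -3.54 on slide 1 alone, so its fold depends on the background correction. Sod1, Sod2 and Cat kept their direction under all 19: Sod1 was 0.28 and Sod2 0.58 after median centring, Sod2 was 0.52 as the mean of its probes, and Cat was 0.35 with processed signals or the matrix. Leaving out 1 replicate gave -3.90 to -3.68 for Prx3. Over all genes 1747 were higher and 1681 lower with replicate 1 taken from its dye-swap array alone. Without the dye-swap array 3303 were higher and 3141 lower. With the channels as separate samples, without the pairing of a replicate block, 1821 were higher. Leaving out 1 replicate gave 1768 to 3003 higher and 1713 to 2846 lower, lowest without replicate 3 in both. Calls in the redox lists ran from 20 to 35 higher and from 23 to 40 lower.

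Of 861 values for 48 other named genes, 805 kept their sign and their side of the threshold, 48 lost the call, 4 gained it and 4 reversed. Those reversed were CG5824 as the mean of its probes (-1.49), porin after median centring (-0.0074), and Trpm with processed signals or the matrix (0.087). For CG5824 the mean takes in the probe with the opposite sign, and for porin the cause was not tested. The Trpm ratio depends on the probe that stands for it. With both channels required above background on all arrays it was -0.07, the value of probe A_09_P002591. The Trpm ratio was -0.08 with normexp offset 0 and -0.05 without background subtraction. These values, and that with processed signals or the matrix, lie near the -0.07 to 0.25 of its other kept probes. Which probe stood for Trpm under these settings was not recorded. The 1 dye orientation of replicates 2 and 3 limits what small ratios can show.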
